A study of Gallus gallus with 21 samples.

Results

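In 2 of 21 chick neural tube libraries, 1 control (CTRL replicate 1) and 1 with MOXD1 targeted (KO replicate 8), a set of 149 genes stood at several times its usual level. The 149 genes were found among 24356 in the count table by a rule on annotation and level. Annotation asked for a first chromosome entry of 1 to 15, 17 to 28, 30 or 33, at least 2 exon records, a summed exon length over 1000 bases and a span under 300000 bases, which 16690 genes met. Level asked for at least 5 CPM (counts over the total of the library, times 1000000) and at least 4 times the median of the other 19 libraries, in both CTRL replicate 1 and KO replicate 8. Without the fold, 8708 genes passed, so the 149 were 1.71% of those that could have been chosen. The high values in CTRL replicate 1 and KO replicate 8 chose the genes and are no finding. What follows concerns the other 19 libraries, 8 CTRL and 11 KO, of which the rule used the median alone.

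Messenger RNA of the trunk portion of the neural tube was sequenced from 9 CTRL embryos, labelled wild type, and 12 KO embryos, labelled MOXD1 KO. Per the labels' protocols, constructs were injected into the lumen of the neural tube at Hamburger-Hamilton stage 10+/11 and electroporated on one side, and CRISPR/Cas9 was used for the knock-out, and edited cells may therefore be mixed with unedited ones in a library. Neither the age at harvest nor the construct used in CTRL embryos is given in the sources used here. Total counts of the 19 libraries ran from 16164404 to 21133788, and 12473 to 13030 genes reached 1 CPM. Transcripts of the W chromosome, which hens carry, made up 0.180% to 0.239% of counts in 13 of the 19 libraries and 0.00202% to 0.00455% in the other 6, CTRL replicate 9 and KO replicates 1, 3, 5, 9 and 10.

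The trunk portion of the neural tube is the epithelium that becomes the spinal cord. Neural crest cells leave its dorsal edge and form peripheral neurons, glia and pigment cells, and somites, notochord, surface ectoderm and vessels lie directly against it. MOXD1 encodes a protein related to dopamine beta-hydroxylase, a copper-dependent enzyme. The table pairs none of its gene IDs with a symbol, and 0 matched the gene list at hand, so the level of MOXD1, the roles of the 149 genes and the markers of the tissue and of its neighbours were not analysed here. Genes are named by chromosome, start and end on the GRCg6a assembly.

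Over the 19 libraries the 149 genes were mostly of low abundance. Their median levels ran from 0.0540 to 97.7 CPM, with 124 genes at 1 CPM or more and 19 at 10 CPM or more. The middle of these levels was 2.43 CPM, or 1.04 CPM per kilobase of exon. It was 3.25 CPM per kilobase over the 16690 genes that met the annotation part. For the 8559 genes that met every criterion but the fold it was 14.8 CPM per kilobase. The rule kept genes of low level out of the 8559, all of which had a median of at least 1 CPM. For the 149 genes, a low level among the 19 was favoured by the rule, which compares with the median of these libraries. In counts, the median gene of the set had 47 per library, and 23 genes had a count of 0 in at least 1 of the 19.

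In CTRL replicate 1 the folds over the median of the 19 ran from 4.00 to 229, with a median of 6.46. In KO replicate 8 they ran from 4.00 to 120, with a median of 8.01. Of the 149 genes, 69 were higher in CTRL replicate 1 and 80 in KO replicate 8. Each of these libraries alone had more genes past the level and the fold, 325 in CTRL replicate 1 and 273 in KO replicate 8, so the shared genes were 45.8% of one list and 54.6% of the other. Just inside the fold lay a gene on chromosome 13 (1335704 to 1434738), whose median was 1.92 CPM, with 8.07 and 7.69 CPM in CTRL replicate 1 and KO replicate 8, and a gene on chromosome 19 (6058425 to 6064415), for which these values were 2.99, 12.0 and 12.1 CPM. Just outside lay a gene on chromosome 7 (16262309 to 16266918), with 10.5, 41.6 and 45.8 CPM, and a gene on chromosome 8 (6358451 to 6366057), with 5.26, 20.9 and 62.3 CPM.

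The 149 genes were not level among the other 19 libraries. Their summed level ran from 331 CPM in KO replicate 10 to 2675 CPM in CTRL replicate 7, an 8.08-fold range. In the 8 CTRL libraries the sum had a lowest value of 382 CPM, a median of 934 CPM and a highest of 2675 CPM. In the 11 KO libraries these were 331, 960 and 2569 CPM. The highest sums belonged to libraries of both groups, CTRL replicates 7 (2675 CPM) and 4 (2541 CPM) and KO replicates 1 (2569 CPM), 7 (2120 CPM) and 4 (1632 CPM). The lowest belonged to KO replicates 10 (331 CPM) and 12 (424 CPM) and CTRL replicates 6 (382 CPM), 2 (431 CPM) and 8 (476 CPM). CTRL replicate 1 (6668 CPM) and KO replicate 8 (6771 CPM) stood above all 19. The rule chose the genes by high levels in this pair, so these sums are no finding. In bulk tissue, more cells of a type and more RNA per cell cannot be told apart.

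**Figure D1:**
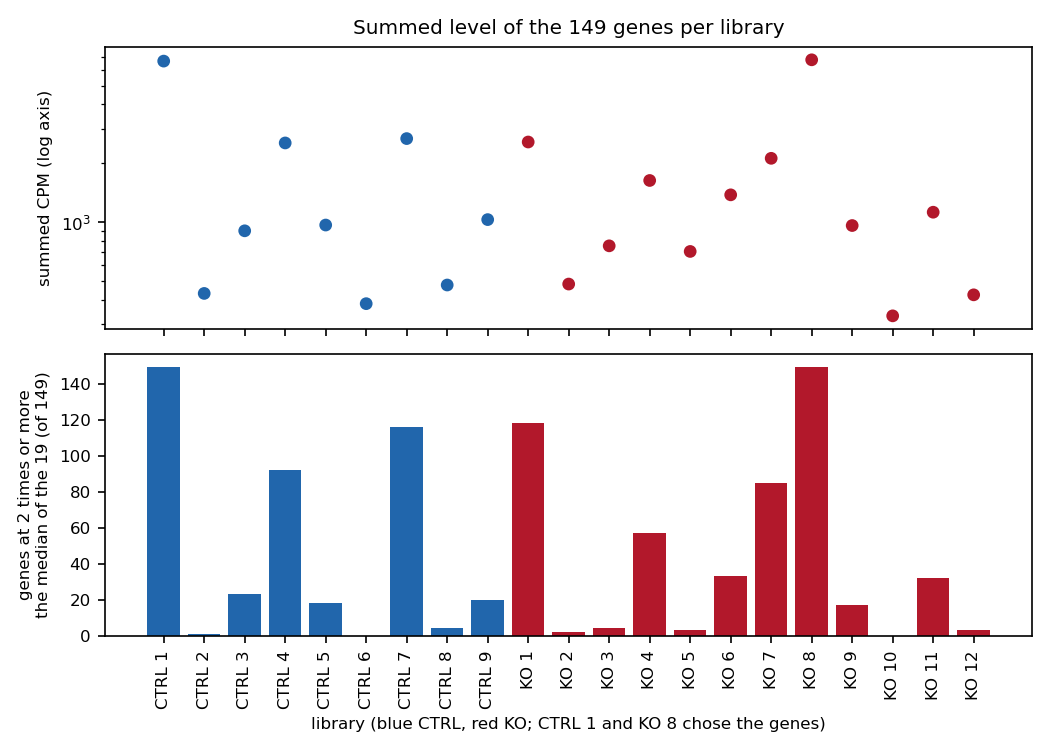
The upper panel plots the summed level of the 149 genes in each library in CPM on a log axis, and the lower panel counts the genes at 2 times or more their median over the 19 libraries. CTRL libraries are blue and KO libraries red, and CTRL replicates 4 and 7 and KO replicates 1, 4 and 7 stand between the pair of libraries that chose the genes and the rest.

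Most of the set took part in these differences. In KO replicate 1, 118 of the 149 genes (79.2%) stood at 2 times their median over the 19 or more, against 0.771% of the 8559 other genes. The count was 116 genes in CTRL replicate 7 (77.9%, against 2.50% of the other genes), 92 in CTRL replicate 4 (61.7%, against 1.41%), 85 in KO replicate 7 (57.0%, against 1.03%) and 57 in KO replicate 4 (38.3%, against 0.631%). KO replicates 6 and 11 followed with 33 genes (22.1%, against 0.397%) and 32 genes (21.5%, against 0.678%). CTRL replicate 6 and KO replicate 10 had 0, against 1.27% and 1.23% of the other genes. At the low end, 97 genes in KO replicate 10 and 93 in CTRL replicate 6 stood at no more than 0.5 times their median. For this low count no share of the other genes is given here, so it is not set against the library as a whole. The other genes were of higher level and smaller spread than the set, so their share is no matched comparison.

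The highest of a gene's 19 values was found in KO replicate 1 for 38 genes, CTRL replicate 4 for 37, CTRL replicate 7 for 35, KO replicate 4 for 16 and KO replicate 7 for 14. These 5 libraries, named after the values were seen, thus held the highest value of 140 genes (94.0%), against 34.0% of the 8559 other genes. The lowest value was found in KO replicate 10 for 35 genes, CTRL replicate 6 for 32 and CTRL replicate 2 for 21. Of the 149 genes, 89 reached 4 times their median in at least 1 of the 19, and 60 in none. For the lowest values and for these counts at 4 times, no share of the other genes is given here. For 26 genes the highest of the 19 values was at or above the lower of CTRL replicate 1 and KO replicate 8. For 11 genes it was above both, in CTRL replicates 4 (4 genes), 7 (4 genes) and 2 (1 gene) and in KO replicate 7 (2 genes).

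**Figure D2:**
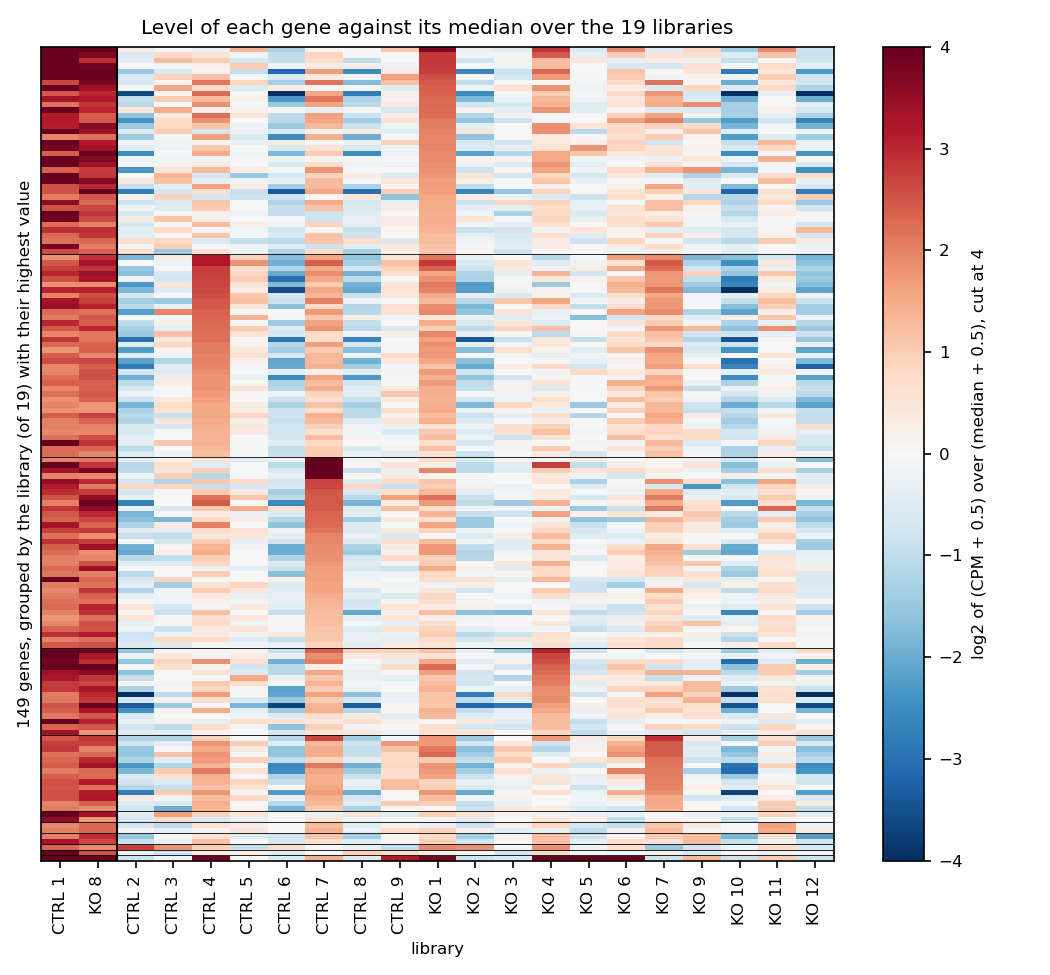
Rows are the 149 genes, grouped by the library of the 19 that held their highest value, columns are the 21 libraries, and colour is log2 of CPM over the gene's median across the 19, with 0.5 CPM added to both and cut at 4 in either direction. The 38 genes highest in KO replicate 1, the 37 highest in CTRL replicate 4 and the 35 highest in CTRL replicate 7 form the largest blocks, and many of these genes are also above their median in another of these libraries.

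The 6 most abundant genes of the set also differed in level among the 19. A plus-strand gene on chromosome 11 (18842577 to 18845331, 7 exon records) had 97.7 CPM as the median of the 19, and its 53.6 CPM per kilobase was the highest of the 149. Its CTRL values had a lowest of 40.9 CPM, a median of 104 CPM and a highest of 339 CPM, and its KO values 41.2, 95.8 and 320 CPM. CTRL replicate 4 (339 CPM) and KO replicate 1 (320 CPM) were highest, followed by KO replicates 6 (265 CPM) and 7 (256 CPM) and CTRL replicate 7 (232 CPM), and the groups overlapped over nearly their whole range.

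On chromosome 26, a gene with 67 exon records (plus strand, 1165982 to 1185894) ran from 5.82 CPM in CTRL replicate 6 to 169 CPM in CTRL replicate 4, and from 7.97 CPM to 84.9 CPM in KO. On chromosome 1, a gene of the minus strand with 90 exon records (23044093 to 23176470) had 2.65 to 91.4 CPM in CTRL and 3.00 to 99.5 CPM in KO, with KO replicate 1 highest. Its 608 CPM in KO replicate 8 was 19.3 times the median of the 19, and its 186 CPM in CTRL replicate 1 was 5.92 times that median. The other genes of the 6 lay on chromosome 6 (35825229 to 35837369, 14.1 to 88.1 CPM over the 19), chromosome 22 (1098617 to 1103124, 0.551 to 168 CPM) and chromosome 1 (59422545 to 59528716, 12.8 to 54.2 CPM). Of the 6, 4 were highest in CTRL replicate 4, 1 in CTRL replicate 7 and 1 in KO replicate 1. The chromosome 1 gene at 59422545 followed the libraries with the highest sums only in part. It had 21.8 CPM in KO replicate 4, below its median of 24.4 CPM. Its 31.8 CPM in CTRL replicate 4 was below its 40.2 CPM in KO replicate 11.

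Spread was wide for the whole set. The SD of log2(CPM + 0.5) over the 19 libraries had a median of 0.96 among the 149 genes, with a range from 0.45 to 2.36, against 0.28 over all 16690 genes that met the annotation part and 0.29 over the 8559 others at this level. All 149 lay above the upper quartile of the 8559, 0.40. The edgeR estimate of the biological coefficient of variation, which sets counting error apart, had a median of 0.743 for the 142 genes of the set that were tested and 0.265 over all genes tested. A gene that varies between libraries in general had a better chance of meeting the rule, so wide spread among the 19 is a description and was given no test.

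**Figure D3:**
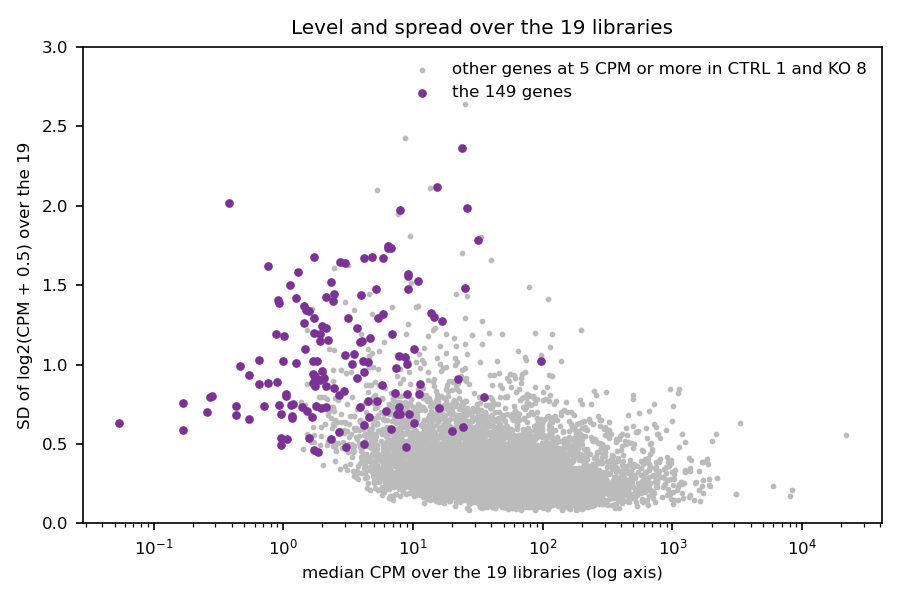
Each point is a gene, with its median CPM over the 19 libraries on a log axis and the SD of log2(CPM + 0.5) over the 19 on the other axis. The 149 genes, in purple, run from 0.0540 to 97.7 CPM and from 0.45 to 2.36 in SD, above most of the 8559 other genes in grey.

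Among genes with a median of at least 1 CPM, the widest spread belonged to a gene on chromosome 25 (2427409 to 2432025, plus strand, 2 exon records, SD 2.36). It ran from 0.710 CPM in CTRL replicate 6 to 116 CPM in CTRL replicate 4, and from 0.184 CPM in KO replicate 10 to 125 CPM in KO replicate 1. Next came chromosome 1 (53713025 to 53802913, SD 2.12), with 0.0612 CPM in KO replicate 10 and 56.6 CPM in KO replicate 4, the chromosome 22 gene above (SD 1.99), and chromosome 5 (5444151 to 5461448, SD 1.97), which ran from 0.142 CPM (CTRL replicate 6) to 26.5 CPM (KO replicate 4). The same few libraries stood at the ends of these ranges.

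The steadiest genes of the set moved far less among the 19. A gene with 42 exon records on chromosome 8 (10713267 to 10722126) stayed between 0.680 and 3.11 CPM (SD 0.45), with 27.3 and 7.37 CPM in the choosing pair. The others were on chromosome 6 (22492113 to 22548666, 1.04 to 4.73 CPM, SD 0.46), chromosome 2 (112154197 to 112372740, 1.91 to 6.03 CPM, SD 0.48) and chromosome 11 (9225471 to 9286162, 5.01 to 23.7 CPM, SD 0.48). These 3 had their highest value in CTRL replicate 7.

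Not all genes followed the same libraries. Of the pairs of libraries that held a gene's highest values, CTRL replicate 4 with KO replicate 1 was the commonest, with 25 genes (16.8%, against 1.02% of the 8559 other genes), followed by CTRL replicate 7 with KO replicate 1 for 19 genes (12.8%, against 0.993%) and KO replicate 1 with KO replicate 4 for 18 genes (12.1%, against 0.561%). The 18 genes that were highest in KO replicates 1 and 4 differed between the libraries that chose the set, with 13 of them higher in CTRL replicate 1 and a median ratio of CTRL replicate 1 to KO replicate 8 of 2.46. Grouped by the single highest library instead, the 37 genes highest in CTRL replicate 4 had a median ratio of 0.897. Of these, 12 were higher in CTRL replicate 1 and 25 in KO replicate 8. In this grouping the ratio was 1.53 for the 38 genes of KO replicate 1 and 1.01 for the 16 of KO replicate 4. It was 0.875 for the 35 of CTRL replicate 7 and 0.796 for the 14 of KO replicate 7. Values that chose the genes enter these ratios, so they are a description, and their differences were not tested.

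A minus-strand gene on chromosome 21 (5646905 to 5658909) was 1 of the 18 genes highest in KO replicates 1 and 4. It had 35.3 CPM in KO replicate 1 and 26.9 CPM in KO replicate 4, and 2.03 to 10.5 CPM in the remaining 17 libraries. The libraries that chose the set, CTRL replicate 1 and KO replicate 8, had 209 and 64.9 CPM. A plus-strand gene on chromosome 4 (78805627 to 78808134) had 18.8 CPM in KO replicate 1 and 9.99 CPM in KO replicate 4, with at most 4.96 CPM elsewhere among the 19, and the choosing pair had 107 and 40.7 CPM. Its lower fold of 43.6 was among the 3 largest of the set.

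The other 2 of the 3 largest folds belonged to genes with low medians among the 19. On chromosome 2, a gene at 2551903 to 2634749 had a median of 0.0540 CPM, a highest value of 1.53 CPM in KO replicate 1 and 0 counts in several libraries, against 12.4 and 6.51 CPM in the pair that chose it. It overlaps a gene of its own strand, and reads shared with that gene were not counted. On chromosome 5, a gene at 2267447 to 2271334 had a median of 0.378 CPM, with values of 7.44 to 13.7 CPM in CTRL replicates 4 and 9 and KO replicates 1, 4, 5 and 6. In the other 13 it had at most 1.93 CPM, while CTRL replicate 1 and KO replicate 8 had 45.7 and 43.8 CPM.

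Other genes stood highest by far in CTRL replicate 7. A gene on chromosome 6 (17930807 to 18009556) had 103 CPM in that library and at most 2.17 CPM in the other 18, while CTRL replicate 1 and KO replicate 8 had only 5.93 and 6.67 CPM. A gene on chromosome 9 (14097822 to 14108342) had 132 CPM in CTRL replicate 7, 14.5 CPM in KO replicate 4 and at most 3.06 CPM in the others. Chromosome 19 (8536207 to 8539366) held another such gene, with 70.2 CPM in CTRL replicate 7 and at most 4.34 CPM elsewhere among the 19, as did chromosome 10 (16848620 to 16900084), with 23.7 CPM against at most 2.38 CPM. Of the 39 genes that reached 4 times their median in exactly 1 library, that library was CTRL replicate 4 for 14, CTRL replicate 7 for 10 and KO replicate 1 for 9. For these counts no share of the other genes is given here. CTRL replicate 7 was also high for genes outside the set, and held the highest value of 14.6% of the 8559 other genes. Of 124 genes past the level and the fold in that library, 26 were of the set. In CTRL replicate 4 it was 34 of 73, and in KO replicate 1 it was 33 of 41. High values in CTRL replicate 7 are thus no trait of the set alone.

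**Figure D4:**
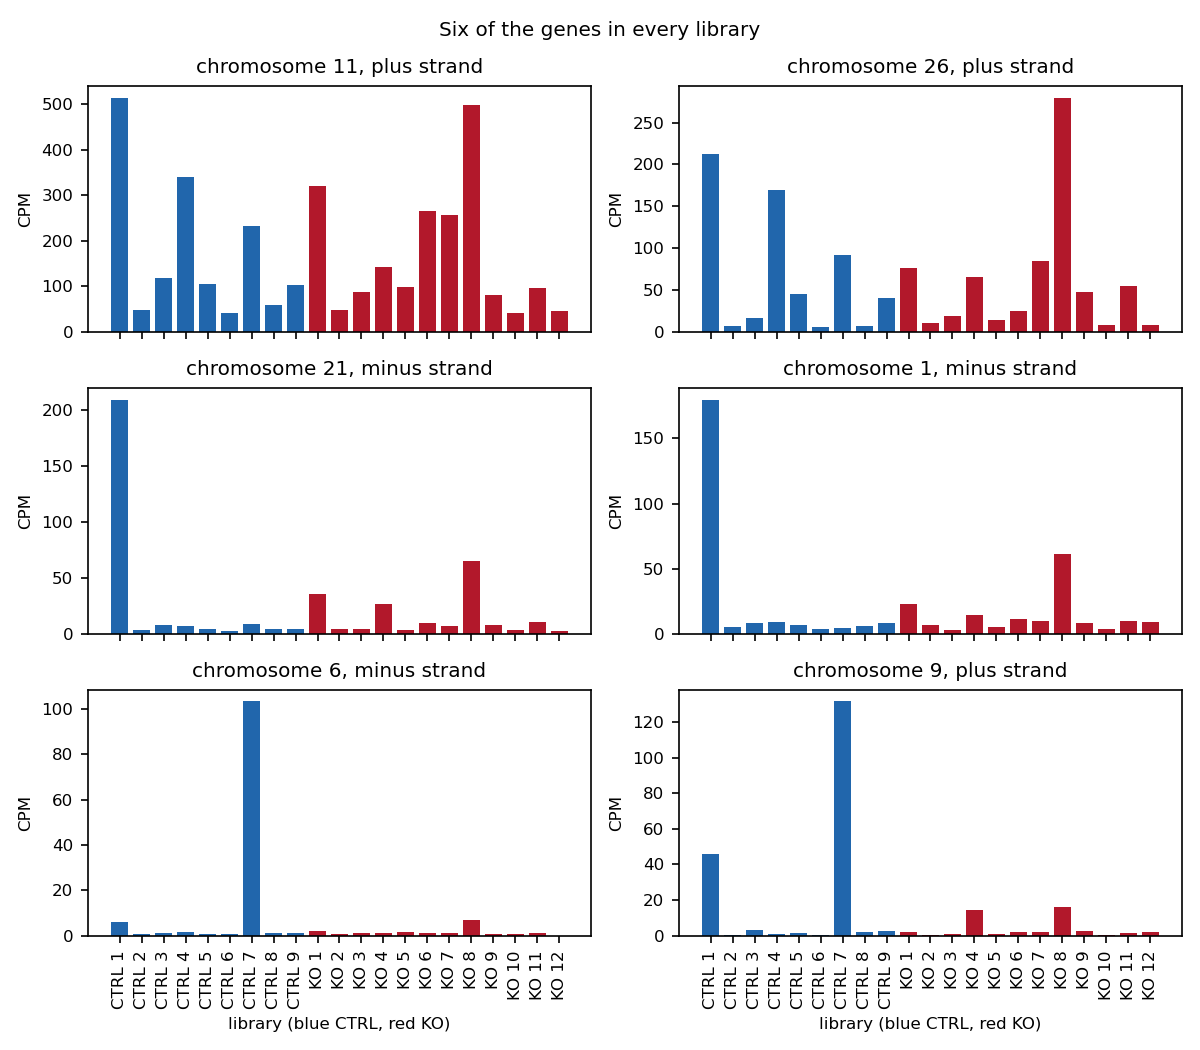
Bars give the CPM of 6 genes in every library, CTRL blue and KO red, each on its own axis from 0. The upper genes, on chromosomes 11 and 26, are graded over many libraries, those in the middle, on chromosomes 21 and 1, are highest of the 19 in KO replicates 1 and 4, and the lower ones, on chromosomes 6 and 9, peak in CTRL replicate 7 at 103 and 132 CPM.

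The 149 genes lay on 27 of the 29 chromosomes that the rule allows. Chromosomes 23 and 30 held 0, of the 161 and 73 genes there that met every criterion but the fold. Chromosomes 1 to 5 held 63 of them (42.3%), against 44.9% of the genes that met every criterion but the fold. Chromosome 1 held the most, 24 of 1171 such genes (2.05%), and the highest share was on chromosome 13, with 7 of 193 (3.63%). The share over all these chromosomes was 1.71%, and differences between chromosomes were not tested. Against the 8559 others, the median exon length was 2213 bases to 2687, the median number of exon records 11 to 15 and the median span 20566 bases to 16431. The plus strand held 49.0% of the set and 50.1% of the others.

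A minority of the set had close neighbours within it. Counting genes whose starts lay at most 500000 bases apart, 36 of the 149 (24.2%) fell into 17 clusters, 15 of 2 genes and 2 of 3 genes. Of all 16690 genes that met the annotation part, 99.9% had such a neighbour of their own kind. Those genes lie far more densely on the chromosomes, so their share is no matched comparison. Whether the set is more or less clustered than its number would give was not tested. In 6 of the 17 clusters the highest value of every gene was in the same library. Of the 21 pairs of genes within clusters, 8 (38.1%) shared that library, against 19.8% of all pairs among the 149, and the difference was not tested. Between the neighbours in the larger clusters lay many genes outside the set. The 3 plus-strand genes on chromosome 28 (3303239 to 3728552) had 34 other genes of the annotated kind among them, of which 2 stood at 2 times the median or more in both CTRL replicate 1 and KO replicate 8. The 3 minus-strand genes on chromosome 19 (5615835 to 6064415) had 28, of which 1 did. The share of all genes that did so in both libraries is not given here. These counts therefore do not tell whether the neighbours differed from other genes.

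On chromosome 28 all 3 genes were highest in CTRL replicate 4. The first, at 3303239, had 31.4 CPM there, a CTRL median of 6.12 CPM and a KO range of 1.20 to 20.7 CPM. The second, at 3688008, had 10.4 CPM there and a KO range of 0.918 to 8.52 CPM, and the last, at 3716519, had 10.0 CPM there and a KO range of 0.428 to 5.50 CPM. The 3 genes on chromosome 19 differed in the library of their highest value, 6.14 CPM in KO replicate 1 for the gene at 5615835, 7.67 CPM in KO replicate 4 for the one at 5943316 and 22.1 CPM in CTRL replicate 4 for the one at 6058425.

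The tightest cluster was a pair on chromosome 1, on opposite strands within 13635 bases (145718083 to 145731717), with no other gene of the annotated kind between them. The minus-strand gene had 22.7 CPM in KO replicate 1 and 14.0 CPM in KO replicate 4, and 2.91 to 11.4 CPM in the other 17. The plus-strand gene had 6.14 and 4.21 CPM in these libraries and 0.0612 to 3.45 CPM in the other 17. Both stood far higher in CTRL replicate 1, at 180 and 44.2 CPM, than in KO replicate 8, at 60.9 and 10.8 CPM. Next in size was a pair on chromosome 22 whose genes overlap on opposite strands (1089882 to 1108097), chosen after its values were seen. Both were highest in CTRL replicate 4, at 74.5 CPM for the plus-strand and 168 CPM for the minus-strand gene, and the counts were made by strand.

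The design asks whether levels differ between KO and CTRL. No gene of the set passed the test. Of the 149 genes, 142 passed the filter on low counts and entered the fit of 11 KO against 8 CTRL libraries, and 7 did not. By edgeR's quasi-likelihood test, 0 of these 142 had an adjusted p under 0.05, as had 0 of all 13805 genes tested (0%), and the smallest adjusted p was 0.808. DESeq2 and limma-voom also called 0. At an unadjusted p under 0.05, edgeR listed 6 of the 142 (4.23%), 1 higher (0.704%) and 5 lower (3.52%) in KO. Over all genes it listed 819 (5.93%), with 2.73% higher and 3.20% lower. These shares were not compared by a test, and the comparison was less precise for the set, as given below. DESeq2 listed 1117 genes (5.36%), 5 of the set among them, and limma-voom 709 genes (5.14%) and 0 of the set. With CTRL replicate 7 left out, edgeR listed 10 genes of the set (7.04%), 9 higher (6.34%) and 1 lower (0.704%). Over all genes it then listed 6.68%, with 2.77% higher and 3.91% lower. The commoner direction within the set thus turned when this library was left out, and this was not tested. Libraries with little W signal were 1 of 8 in CTRL and 5 of 11 in KO. With the log2 W share as a covariate, 2 genes of the set were listed (1.41%), against 3.27% of all genes.

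**Figure D5:**
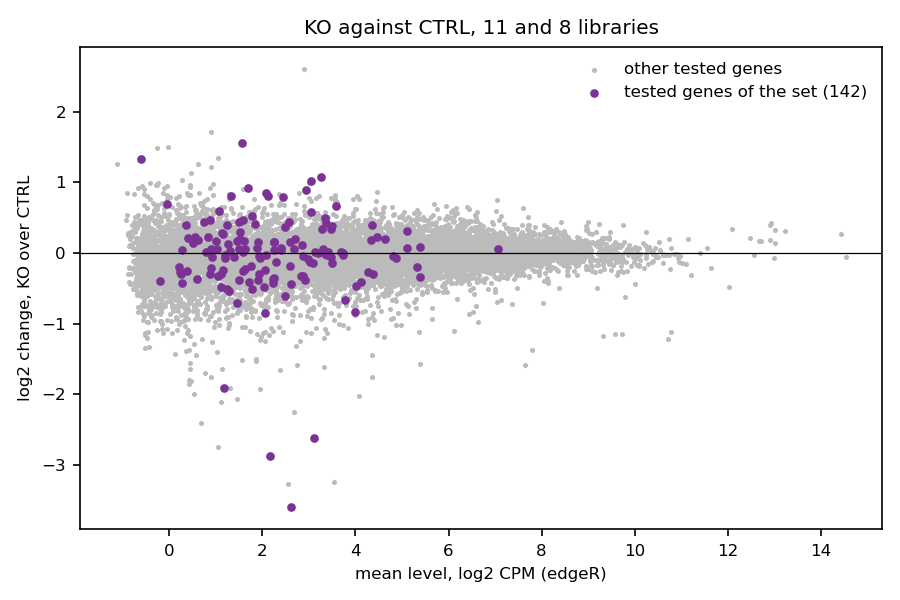
Each point is a tested gene, with its mean level in log2 CPM and its log2 change of KO over CTRL in the 19 libraries. The 142 tested genes of the set, in purple, scatter about 0 with a median of 0.017, and the lowest, at -3.59, rests on CTRL replicate 7.

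The median log2 change of the 142 genes was 0.017, against -0.009 over all genes tested, with 74 genes above 0 and 68 below. Summed levels were 1175 CPM ± 920 (SD, n = 8) in CTRL and 1134 CPM ± 726 (SD, n = 11) in KO. The groups of 8 and 11 overlapped for each of the 149 genes, as they did for every gene tested, so this overlap is no trait of the set. The comparison was less precise for these genes than over all genes tested. Their median standard error was 0.51 on the log2 scale, against 0.17 over all genes tested. The 95% interval lay inside 2-fold in either direction for 31 of the 142 (21.8%), against 86.1% of all genes tested, and inside 4-fold for 121 (85.2%), against 98.5%. A change of 2-fold was thus within the interval for most of the set.

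The genes with the smallest p that were lower in KO were the 4 that stood high in CTRL replicate 7. ENSGALG00000005689, the gene on chromosome 6 at 17930807, had a CTRL median of 1.00 CPM with a highest value of 103 CPM, and a KO median of 1.13 CPM with a highest of 2.17 CPM. The group medians were thus alike, and 7 of 11 KO libraries lay above the CTRL median. KO stood at -3.59 relative to CTRL on the log2 scale (SE 0.94), with p = 9.47e-04 and adjusted p = 0.808 by edgeR, and at -0.03 without CTRL replicate 7. ENSGALG00000050885, at 16848620 on chromosome 10, had a log2 change of -1.90 (SE 0.62, edgeR adjusted p = 0.808), and of -0.15 without that library. For the genes at 8536207 on chromosome 19 and 14097822 on chromosome 9 the log2 changes were -2.87 and -2.61, and turned to 0.70 and 0.72 without it.

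The 4 with the smallest p that were higher in KO were among those that stood high in KO replicates 1 and 4. ENSGALG00000004631, the gene at 5646905 on chromosome 21, had a CTRL range of 2.03 to 8.54 CPM with a median of 4.42 CPM, and a KO range of 2.20 to 35.3 CPM with a median of 6.97 CPM. KO exceeded CTRL by 1.02 on the log2 scale (SE 0.49), with p = 0.0492 and adjusted p = 0.808 by edgeR, and by 0.64 without KO replicate 1. Of the 11 KO values, 6 were above the median of CTRL. ENSGALG00000031144, at 4546836 to 4549231 on chromosome 4, had 1.67 to 6.56 CPM in CTRL and 1.12 to 13.1 CPM in KO, and a log2 change of 0.81 (SE 0.42, edgeR adjusted p = 0.808). Here 9 of the 11 KO values were above the median of CTRL. The gene at 78805627 on chromosome 4 and the minus-strand gene of the chromosome 1 pair had log2 changes of 1.56 and 0.58. None of these 4 differences passed the threshold.

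Values that could move with the level of the set were read beside it. Total counts of CTRL replicates 4 and 7 were 16164404 and 20737363, the lowest and nearly the highest of the CTRL libraries. Mitochondrial transcripts made up 11.0% and 7.73% of counts in these libraries and 8.21%, 11.5% and 7.63% in KO replicates 1, 4 and 7, within the 6.68% to 14.3% of the 19. KO replicate 6 had the highest mitochondrial share, 14.3%, and 1378 CPM of the set. KO replicate 1 was among the 6 libraries with little W signal (0.00273%), while KO replicate 10, with the lowest sum of the set, was another (0.00412%). The part of depth, W signal or mitochondrial share in the level of the set was not tested.

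Genes that stood low in the same pair of libraries gave a partly different order. By the mirrored rule, 248 genes with a median of at least 5 CPM among the 19 stood at no more than 0.25 times that median in both CTRL replicate 1 and KO replicate 8. In CTRL replicate 7 their median fold was 0.495 and in KO replicate 4 it was 0.710, where the median fold of the 149 raised genes was 2.84 and 1.67. In KO replicate 1, where the raised genes had a median fold of 3.06, the low genes were at 1.03, and in CTRL replicate 4 and KO replicate 7 they were at 0.893 and 0.941, beside 2.54 and 2.16 for the raised genes. Libraries with high levels of the 149 genes thus included some with low levels of the 248 and some without.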

How the data were processed

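Raw fragment counts per gene were deposited as 1 table of 21 libraries; per the file headers, the authors counted read pairs by featureCounts 2.0.1, summing exons to genes on the reverse strand, with the Ensembl release 101 annotation of GRCg6a and no option for multi-mapping or overlapping reads. Per the submitters' processing notes, STAR was also used; no settings were at hand. The deposited exon length of each gene, in bases, is another column of that table. Per the labels' protocols, 50 ng of total RNA and 14 PCR cycles went into each library and no molecular identifiers are named, so fragments need not be independent molecules. Replicates are separate embryos per the series design.

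CPM values are counts over the column sum times 1000000. The member genes and the lists were chosen with earlier results of these data known. KO was compared with CTRL over 19 libraries with edgeR 4.0.16 (R 4.3.3): filterByExpr, TMM factors, quasi-likelihood F test, 2-sided, Benjamini-Hochberg adjustment over all genes tested and a threshold of 0.05. The test was tried on simulated counts. Alternatives included DESeq2 1.42.0 and limma-voom (limma 3.58.1). The table had 0 further columns of library values, and 0 rows named no gene. Genes were named by rule: the 6 with the highest median CPM, the 4 widest and 4 narrowest in spread at 1 CPM or more, the 4 with the smallest p in each direction, the first 3 clusters, the 3 largest folds and those nearest the fold limit. Symbols were to be used where given, and planned marker lists were not analysed here because no ID had a symbol.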

Additional observations from a re-analysis of the deposited data

Results flagged for a closer look

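Of 37 values per library examined over the 8 CTRL libraries, 14 had 1 library far from the other 7. Chance gives about 1 in 20 for each value if the values are normally distributed, which CPM and W share need not be. The genes also move together, so this rate is no fair measure of the count. Some of the genes were named for a wide spread or a small p in these same libraries, a choice that favours genes with a far library. KO, with 11 libraries, was not examined. CTRL replicate 7 was far above the others for the genes at 17930807 on chromosome 6 (103 CPM, next 1.79), 8536207 on chromosome 19 (70.2 CPM, next 1.98), 14097822 on chromosome 9 (132 CPM, next 3.06), 16848620 on chromosome 10 (23.7 CPM, next 2.38), 5444151 on chromosome 5 (20.8 CPM, next 8.04), 22492113 on chromosome 6 (4.73 CPM, next 2.91) and 9225471 on chromosome 11 (23.7 CPM, next 10.3). CTRL replicate 4 was far above the others for those at 1098617 on chromosome 22 (168 CPM, next 74.6), 3303239 on chromosome 28 (31.4 CPM, next 9.45) and 6058425 on chromosome 19 (22.1 CPM, next 6.65), and in mitochondrial share (11.0%, next 8.03%). CTRL replicate 3 was far above the others for the genes at 4546836 on chromosome 4 (6.56 CPM, next 3.83) and 145728851 on chromosome 1 (3.45 CPM, next 1.41). CTRL replicate 9 was far below the others in W share (0.00455%, next 0.184%).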

How the results depend on the processing

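The number of genes past the threshold in KO against CTRL, in the set and over all genes tested, was 0 in each of 30 alternatives. The count of set genes at an unadjusted p under 0.05 was 6. It was 2 with the log2 W share as covariate (1.41%, against 3.27% of all genes) and 0 by limma-voom (against 5.14%). With all 21 libraries it was 3 (2.10%, against 7.08%). That fit includes the pair of libraries whose values chose the genes, so its count says nothing of the KO comparison. With 1 library left out it was 4 (without KO replicate 6, 2.84%, against 5.32%) to 10 (without CTRL replicate 7, 7.04%, against 6.68%). The median log2 change of the set ran from -0.16 to 0.30 with 1 library left out.

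Whether replicate numbers pair the libraries was not settled by the labels. By the numbers in the titles, 5 of 7 same-numbered CTRL and KO libraries correlated at over 0.1 and 4 matched their own number best, and the others correlated at -0.312 and -0.0809. By the numbers in the sample descriptions, which skip some values and were examined after seeing the data, the counts were 5 and 3 of 7. Because not every pair was above 0.1, the fit without a block was kept. With the title number as a block, 6 set genes were listed (4.23%, against 16.7% of all genes) and the median log2 change of the 142 tested was 0.023. With the description number as a replicate block, 3 were listed (2.11%, against 6.52%), and the chromosome 4 gene at 78805627 had -0.17.

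With all 21 libraries, the 4 genes higher in KO had -0.82 (chromosome 21), -0.81 and -0.82 (chromosome 4, at 4546836 and 78805627) and -0.83 (chromosome 1). That fit includes the pair of libraries whose values chose the genes, so it says nothing of the KO comparison. With 1 library left out, the chromosome 19 gene at 8536207 ran from -3.30 to 0.70 and the chromosome 9 gene from -3.52 to 0.72; by DESeq2 the former was 0.66. Adjusted p of the 8 genes ran from 0.430 to 0.997. Of 22 other named genes tested, 15 had another sign in at least 1 alternative, and none passed in any (lowest adjusted p 0.284). The set had 239 genes at 3 times the median, 50 at 8 times and 113 with TMM-scaled CPM. Genes in clusters numbered 86 at 3 times, 4 at 8 times, 22 with gaps of at most 200000 bases and 63 with gaps of at most 1000000. Set genes had 47 counts per library at the median, which limits the precision of single values.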
